A study of Mus musculus with 2 samples.

Results

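The activators of the liver clock and the PAR bZIP transcription factors that carry its output are described here from 2 microarrays of mouse liver RNA, 1 upon fasting and 1 upon feeding. The 8 genes, named by list, were Arntl, Clock, Npas2 and Rora, the activators, and Dbp, Tef, Hlf and Nfil3, the PAR bZIP factors and their competitor. They had 9 probes, found by the RefSeq transcript that the array design gives for each probe, and all 8 were among the 16346 genes that were well above background on 1 array or on both; for 7 of the 8 it was both. The rule that selects their probes uses no measured value, but the members were chosen with earlier results of these data known.

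Each array held total RNA pooled from the livers of 3 male mice. The methods give the mice of the study as C57BL/6J, about 8 to 12 weeks old, on chow and under a 12-h light and dark cycle; the labels name no transgene or other treatment for either group. One label puts the fast at 16 h, a different one at 14 to 16 h, and the feeding group is labelled as freely fed and also as fed once the fast was over, so how long it fed is not known. The hour at which the livers were taken is not given in the sources used here, and for genes of the clock an hour that differed between the groups and the feeding itself cannot be told apart. With 1 array per group there is no replicate check, so no p-value is given and every fold below compares these pools. In whole liver, fewer cells of a type and less RNA per cell cannot be told apart.

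In the core of the circadian clock, BMAL1, the product of Arntl, pairs with CLOCK or with its relative NPAS2, and the pair binds E-boxes and switches on the Per, Cry and Nr1d genes, whose products then hold it back. RORα, the product of Rora, activates Arntl through ROR elements, at which the REV-ERB proteins, the products of Nr1d1 and Nr1d2, repress. DBP, TEF and HLF, the PAR bZIP factors, carry the rhythm to enzymes of detoxification and lipid metabolism through D-boxes, which NFIL3, also called E4BP4, occupies as a repressor. In liver, feeding time is a strong cue for this system.

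Hlf and Nfil3, an activator and the repressor at the D-box, were past 2-fold in opposite directions, and the other 6 members were not past it. Hlf was 2.69-fold higher and Nfil3 was 2.27-fold lower upon feeding; with scaling by the median Nfil3 stood at a log2 difference of -0.99, short of 2-fold. Dbp and Tef, the other PAR bZIP factors, stood at log2 differences, feeding minus fasting, of 0.09 and -0.16. Of the 3 activators measured on both arrays, Arntl and Rora were lower, at -0.43 and -0.29, and Clock stood at -0.11, under the measurement error of 0.20 for a difference. With scaling by the median Rora stood at -0.14, also under that error. Of all 16346 genes, 7.91% were past 2-fold, 3.29% higher and 4.62% lower, and the median difference of the members was -0.14 beside 0.00 over all genes. Counts over 8 genes are a description of this group.

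The promoters of Hlf and Nfil3 are shown because these are the members past 2-fold. Sequences are from RefSeq with the assembly GRCm38.p6, read 5′ to 3′ on the strand of the gene, and capitals mark a motif match. All 8 members matched a promoter entry, with 12 windows of 300 bases in all, 250 before the transcription start and 50 from it on. The stretch for Hlf lies at chr11:90390918-90391167 on the minus strand and that for Nfil3 at chr13:52981040-52981289 on the minus strand, each holding the 250 bases before the start.

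Hlf: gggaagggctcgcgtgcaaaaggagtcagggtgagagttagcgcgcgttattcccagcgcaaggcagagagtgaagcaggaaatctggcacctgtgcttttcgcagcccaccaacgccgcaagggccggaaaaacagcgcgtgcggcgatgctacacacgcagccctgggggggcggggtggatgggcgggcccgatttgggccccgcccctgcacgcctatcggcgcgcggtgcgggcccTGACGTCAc
Nfil3: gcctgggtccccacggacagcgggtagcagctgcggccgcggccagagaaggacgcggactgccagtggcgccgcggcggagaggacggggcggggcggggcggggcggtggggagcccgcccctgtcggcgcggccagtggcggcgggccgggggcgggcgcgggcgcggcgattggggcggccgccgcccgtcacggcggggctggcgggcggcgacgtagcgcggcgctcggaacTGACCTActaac

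The Nfil3 stretch held the ROR element TAGGTCA, read on the opposite strand as TGACCTA, with its first base at -12, where -1 is the base just before the start. The Hlf stretch held none of the clock motifs searched, which were the E-box CACGTG, the D-boxes TTATGTAA and TTACGTAA and the ROR elements TAGGTCA and TGGGTCA, each on both strands. It held TGACGTCA, the cAMP response element, at -9, a motif that was searched only after these sequences had been seen. The 12 windows had a GC content of 47.0% to 81.7%, with 67.3% for Hlf and 81.7% for Nfil3, beside a median of 52.7% over all windows.

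Shorter sites are shown for Tef and Arntl, the other members with a match, as 30 bases around it. Tef has 2 start sites in the table, and each has an E-box upstream, at -127 and -138 from its own start, in chr15:81802534-81802563 and chr15:81811264-81811293, plus strand. The ROR element of Arntl begins at base 31 counted from its second listed start, in chr7:113207530-113207559, plus strand.

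Tef, first start: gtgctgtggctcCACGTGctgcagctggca
Tef, second start: cacctggcccagCACGTGtctacatcgttt
Arntl: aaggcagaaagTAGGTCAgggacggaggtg

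No motif was found in the windows of Clock, Npas2, Rora and Dbp, which says only that these letters are not there. Of 32851 promoter windows in the table, 7.15% held the E-box, 1.06% held a D-box of either spelling, 6.45% held a ROR element of either spelling and 1.79% held the cAMP response element. A match is a description of the sequence and was not set against binding. Nfil3 and Arntl, the members with a ROR element in a window, stood at -1.19 and -0.43, and Tef, with E-boxes in its windows, at -0.16. Of the members with no clock motif in a window, Rora stood at -0.29, Clock at -0.11, Dbp at 0.09 and Hlf at 1.43, and Npas2 has no fold. Whether a match bears on a difference was not tested.

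**Figure D1:**
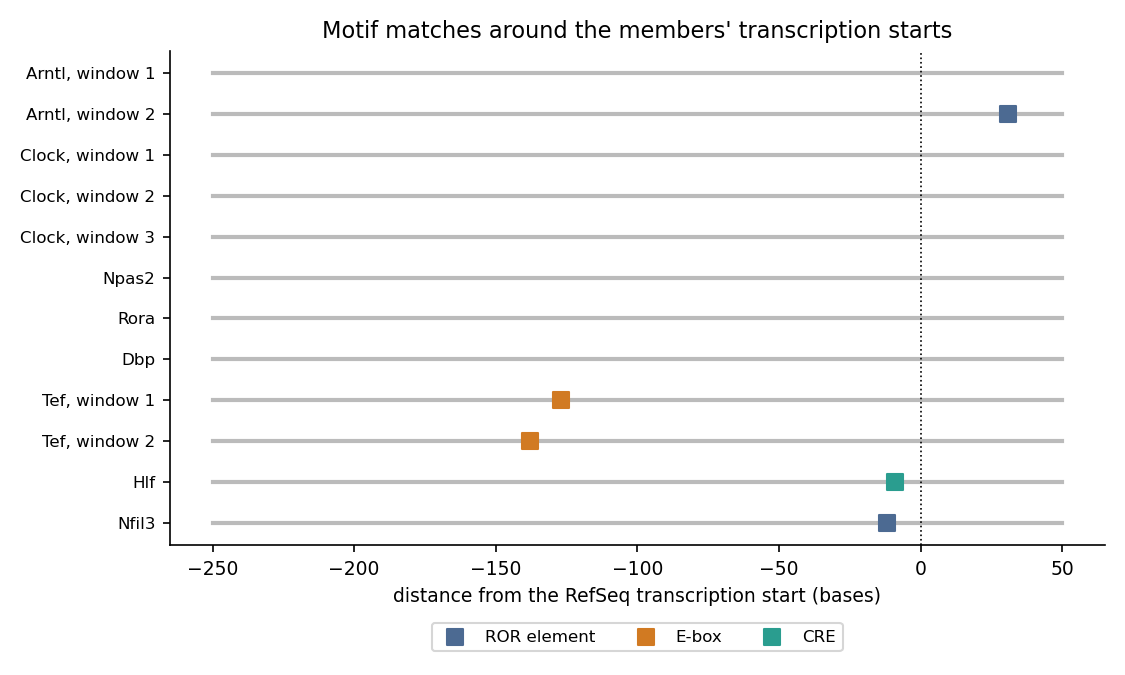
Positions of motif matches (squares, first base) in the 12 windows of the members, from 250 bases before to 50 bases after the RefSeq transcription start (dotted line), in bases. The ROR element of Nfil3 and the cAMP response element (CRE) of Hlf lie at -12 and -9, and the E-boxes of Tef lie further upstream.

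Signals of the members are given as processed signals, the background-subtracted intensity of the spot, in arbitrary units. The difference after quantile normalization between the arrays follows. Each member probe had 1 spot per array. For every member other than Npas2, the error that Feature Extraction assigns to the processed signal was 0.14 on the log2 scale on each array, which gives 0.20 for a difference. Probes spotted about 10 times on the arrays show the spread on the array alone: over 392 such probes the SD of a difference was 0.08 among bright probes, 0.09 among probes of middle signal and 0.52 among dim ones, with 3 classes of equal size by the signal of all genes. Neither error covers the spread between mice.

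Arntl, which encodes the partner that every CLOCK or NPAS2 complex needs, had a processed signal of 2025 upon fasting and 1447 upon feeding. Its log2 difference was -0.43, a fold of 1.35, more than the spread between spots and past the error of 0.20. Of all genes, 15.6% fell further. Clock, which encodes the usual partner of BMAL1 in that complex, stood at 1694 upon fasting and 1514 upon feeding. Its difference of -0.11 was under the error of 0.20, and with scaling by the median it was 0.07, so no direction is given for it.

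Npas2, which can stand in for Clock, was the single member near background. Its signal was 10.6 upon fasting, where it was not well above background, and 10.8 upon feeding, where it was. The local background around these spots was 37.4 upon fasting and 21.3 upon feeding. After normalization Npas2 stood at 11.3 upon feeding, below 14.4, the lowest signal that counted as well above background upon fasting, so no fold is given and Npas2 enters the median at 0. Rora, which drives Arntl through ROR elements, had 1131 upon fasting and 870 upon feeding, a log2 difference of -0.29 or a fold of 1.22, larger than the error of 0.20 and with 22.7% of genes falling further.

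Across the activators, 0 of 4 were past 2-fold, beside 7.91% of all genes, and the median difference was -0.20. Their summed normalized signal was 4772 upon fasting and 3935 upon feeding, a log2 ratio of -0.28. The same ratio was -0.20 for the PAR bZIP factors and Nfil3. It was -0.21 for the clock repressors and -0.19 for the hepatocyte markers, both given below. Arntl and Rora were lower under all alternatives, at -0.44 to -0.25 and at -0.29 to -0.14. The -0.14 of Rora, with scaling by the median, was under the error of 0.20.

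**Figure D2:**
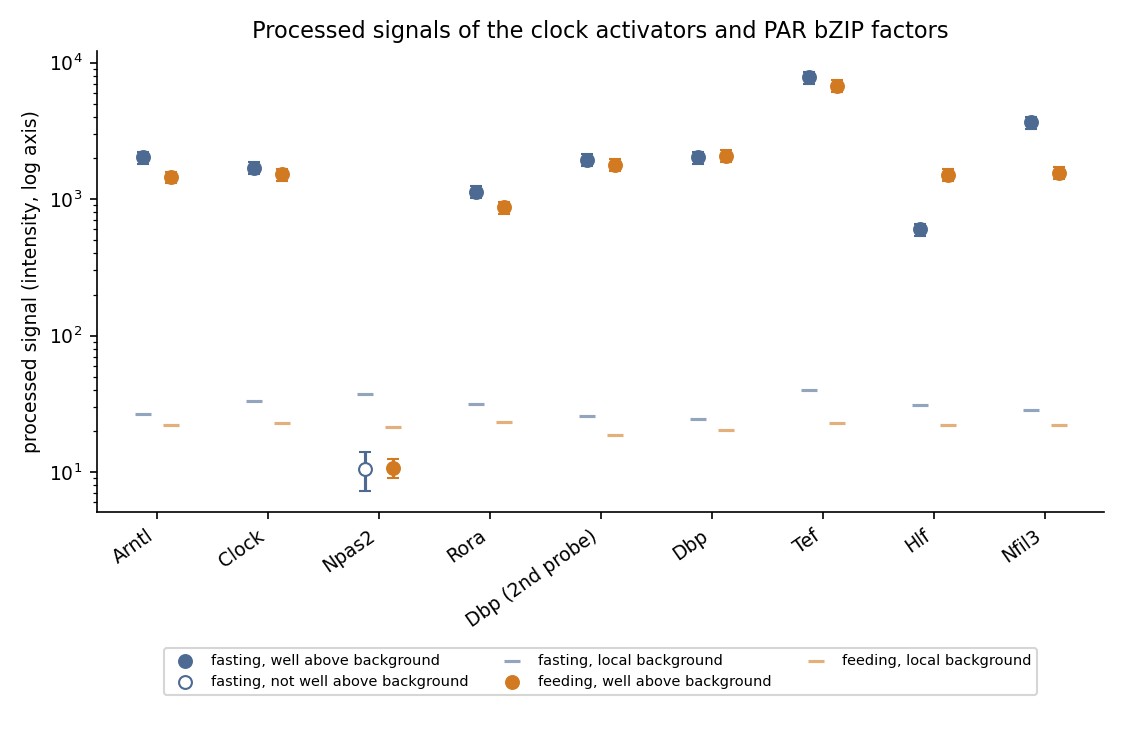
Processed signal of each member probe (log axis, arbitrary intensity units) upon fasting (blue) and upon feeding (orange), with the error assigned by Feature Extraction as bars and the local background, already subtracted from the signal, as dashes. Hlf rose from 599 to 1512 and Nfil3 fell from 3647 to 1566, while the spots of Npas2 lie near 10 and its fasting spot (open circle) was not well above background.

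Dbp, the PAR bZIP gene with the strongest rhythm in liver, has 2 probes on the same transcript, and both are shown. The probe with the higher mean signal had 2018 upon fasting and 2086 upon feeding, a log2 difference of 0.09. The other had 1950 upon fasting and 1779 upon feeding, a difference of -0.09. With scaling by the median Dbp stood at 0.28, past the error of 0.20, and with the mean of its probes at 0.00. The probes disagree in sign, and their differences of 0.09 and -0.09 are both under that error, so no direction is given for Dbp. Tef, which encodes the thyrotroph embryonic factor, had 7795 upon fasting and 6786 upon feeding. Its difference of -0.16 was also under that error, and with scaling by the median it was 0.03.

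Hlf, which encodes the hepatic leukemia factor, had a processed signal of 599 upon fasting and 1512 upon feeding. After normalization the values were 572 and 1541, a log2 difference of 1.43 or 2.69-fold, beside 2.52-fold before normalization. The difference is well past the error of 0.20, and 212 genes, or 1.30% of all, rose further. Across the alternatives the difference lay between 1.29 and 1.57, past 2-fold in each.

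Nfil3 went the other way, from 3647 upon fasting to 1566 upon feeding. After normalization the values were 3618 and 1591, a log2 difference of -1.19 or 2.27-fold, beside 2.33-fold before normalization, and 577 genes, or 3.53% of all, fell further. The call depends on the scaling: with scaling by the median, which moved the median of all genes up by 0.09, Nfil3 stood at -0.99, just short of 2-fold. Its direction was the same under all alternatives, from -0.99 to -1.19. The log2 difference of Hlf exceeded that of Nfil3 by 2.61, that of Tef by 1.59 and that of Dbp by 1.34.

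**Figure D3:**
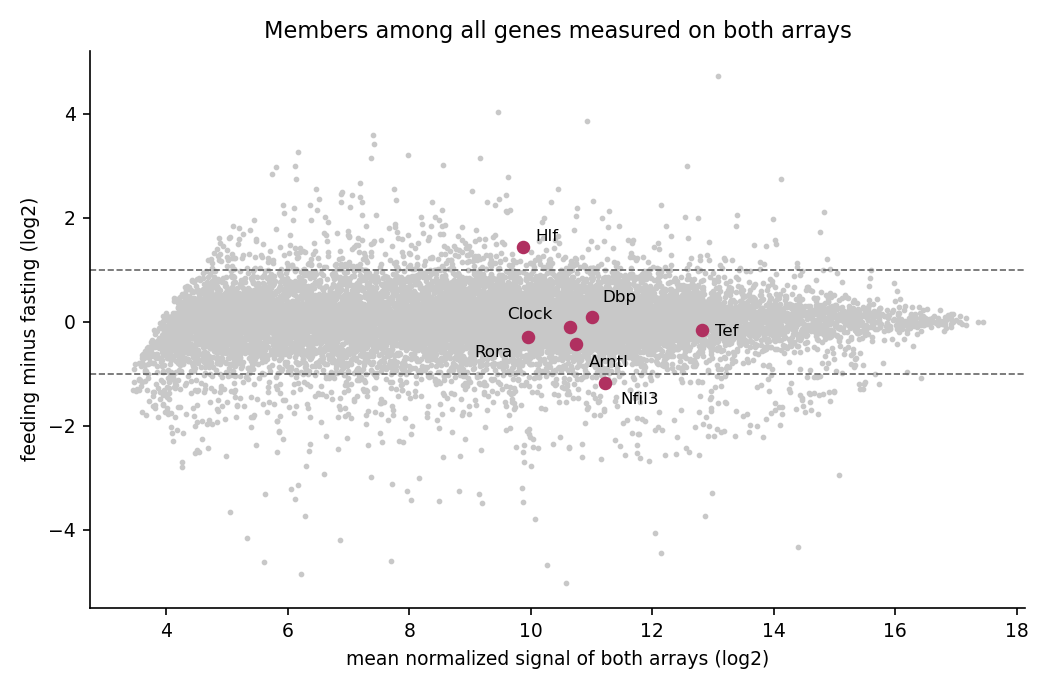
Difference between the arrays (feeding minus fasting, log2) against mean normalized signal (log2) for the 14515 genes well above background on both arrays (grey points), with 7 members marked and 2-fold shown by dashed lines. Hlf at 1.43 lies above and Nfil3 at -1.19 below the lines, and Dbp, Tef, Clock, Rora and Arntl lie between them.

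The genes that the activators switch on and that hold them back, the clock repressors, spread much more widely than the activators. Of 10 repressors 4 were past 2-fold, 2 higher and 2 lower, beside 7.91% of all genes, with a range of -1.95 to 2.36. The median of the 10 was -0.14, with 8 of them measured on both arrays and Per3 and Bhlhe41, which have no fold, entered at 0. The period genes encode partners of the cryptochromes, and here they split: Per1 had normalized signals of 5754 upon fasting and 1489 upon feeding, a difference of -1.95, whereas Per2 had 313 and 1613, a difference of 2.36. Bhlhe40, which encodes the E-box repressor DEC1, stood at 1494 and 5316, or 1.83.

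Nr1d2, which encodes REV-ERBβ, had normalized signals of 3355 upon fasting and 1622 upon feeding, a difference of -1.05, but with scaling by the 75th percentile and by the median it was -0.98 and -0.86, and with the normexp background correction -0.98, each short of 2-fold. Nr1d1, which encodes REV-ERBα, was just short at -0.97 and past it, at -1.04, with scaling by the 75th percentile. Both REV-ERB genes stood near 2-fold lower upon feeding, as did Nfil3, a gene that REV-ERB proteins are known to repress. Whether these differences are linked was not tested.

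Among the remaining repressors, Ciart, a target and inhibitor of the CLOCK complex also called CHRONO, stood at -0.92, Cry2 at -0.29 and Cry1, a cryptochrome with a ROR element, at 0.84. Per3 and Bhlhe41 were well above background upon feeding alone and so dim there that no fold is given. Arntl2 and Rorb, relatives of the activators, were well above background upon feeding alone and have no fold.

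**Figure D4:**
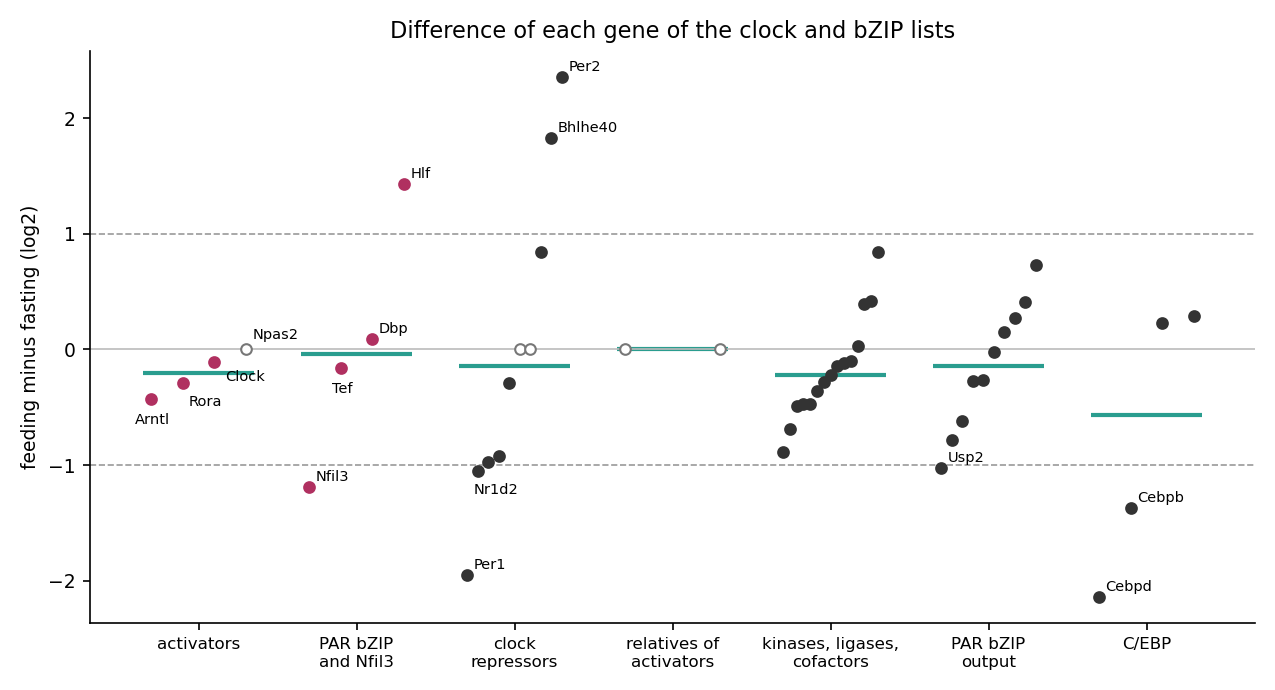
Difference of each gene (feeding minus fasting, log2) in the members (red) and 5 further lists (black), with list medians as green lines, 2-fold as dashed lines and genes with no fold as open circles at 0. The activators lie between -0.43 and 0.00, Hlf and Nfil3 lie on opposite sides beyond the dashed lines, and the repressors reach from Per1 at -1.95 to Per2 at 2.36.

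Grouped by the element through which they are known to be controlled, a grouping taken from general knowledge, genes with an E-box or a D-box were found past 2-fold in both directions. Of 10 genes listed with an E-box, 3 were higher past 2-fold (Per2, Bhlhe40 and Hlf) and 2 were lower (Per1 and Nr1d2). Of all genes, 7.91% were past 2-fold in either direction. The median of the 10 was -0.08, with 9 measured on both arrays and Bhlhe41, which has no fold, entered at 0. This list leaves out Cry1, Cry2 and Per3, which the BMAL1 pair also switches on. Cry1 and Cry2, at 0.84 and -0.29, were not past 2-fold, and Per3 has no fold. Of 7 genes with a known D-box, on which HLF and NFIL3 compete, Per2 was higher and Per1 and Nr1d2 were lower past 2-fold. The median of the 7 was -0.29, with 5 of them measured on both arrays and Per3 and Rorb, which have no fold, entered at 0. The lists share members, since Per1, Per2, Nr1d1 and Nr1d2 have both an E-box and a D-box.

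The output genes of the PAR bZIP factors, among them cytochrome P450 genes, Alas1, Por, Nr1i3 and Ppara, are given next. Of 10 measured, 1 was past 2-fold, beside 7.91% of all genes, with a range of -1.03 to 0.73 and a median of -0.14. It was Usp2, which encodes a deubiquitinase with a strong rhythm in liver, at normalized signals of 5159 upon fasting and 2526 upon feeding. Its difference was -1.03, but it was short of 2-fold under other scalings, at -0.96 and -0.84, and with the normexp background correction, at -0.94. None of the 15 kinases, ubiquitin ligases and cofactors that act on the clock proteins was past 2-fold by its brightest probe, beside 7.91% of all genes. Their range was -0.89 to 0.84 and their median -0.22.

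The C/EBP factors, bZIP proteins whose sites overlap those of the PAR bZIP family, are given for comparison. Of 4 genes 2 were lower past 2-fold, beside 4.62% of all genes. Cebpd, an acute phase regulator, fell from a normalized signal of 6858 to 1556, a difference of -2.14. Cebpb, an activator of gluconeogenic genes, fell from a normalized signal of 39400 to 15270, a difference of -1.37. Cebpa, the factor of the mature hepatocyte, stood at 0.29 and Cebpg at 0.23.

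**Figure D5:**
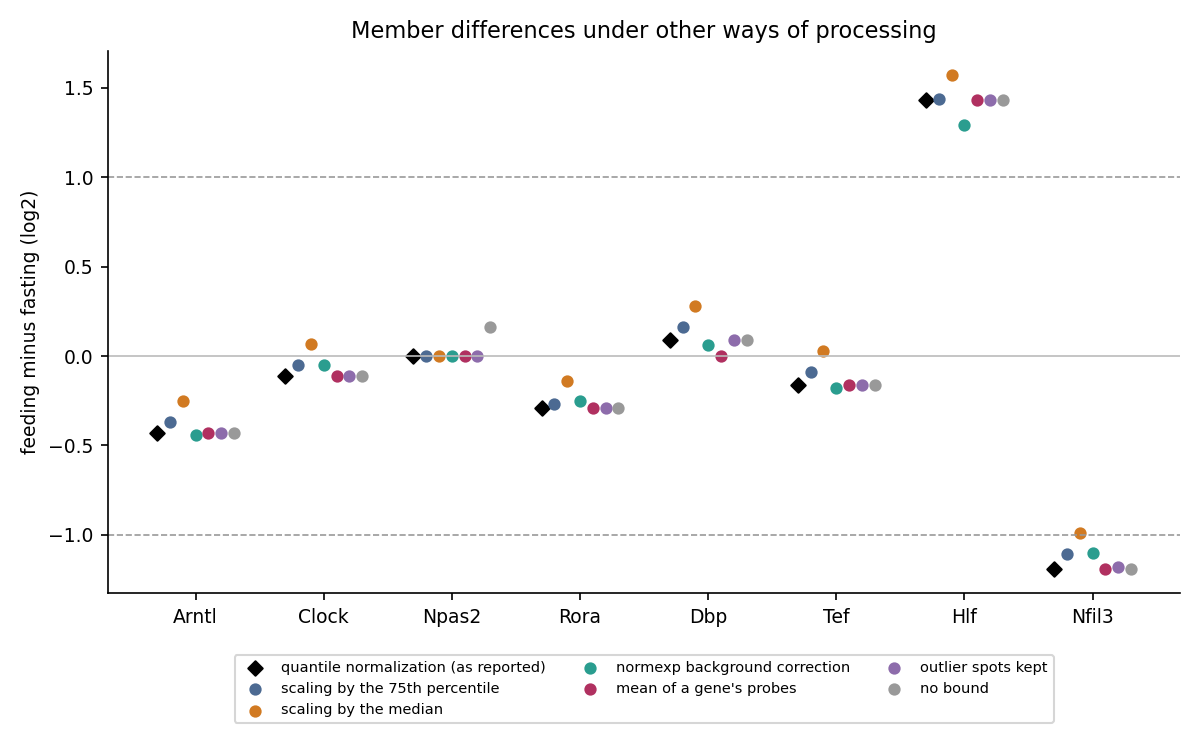
Difference of each member (feeding minus fasting, log2) with quantile normalization (black diamonds) and under 6 other ways of processing (coloured circles), with 2-fold as dashed lines. Hlf stays between 1.29 and 1.57, Nfil3 reaches -0.99 with scaling by the median, and Clock, Dbp and Tef lie within 0.28 of 0.

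Genes with a known response to feeding went the way of the labels. They were listed with earlier results of these data known, so they are no independent check of the labels. Fasn, Srebf1 and Pnpla3, genes of lipid synthesis and storage, were higher by 2.99 to 3.15, and Pck1, Igfbp1, Angptl4 and Lpin1, genes of the fasted liver, were lower, at -2.95 to -4.69. All 6 hepatocyte markers were well above background on both arrays and none was past 2-fold, beside 7.91% of all genes. Of the markers of other cells, Pecam1 of endothelial cells was lower at -1.04 (short of 2-fold with scaling by the median, at -0.98, and with normexp, at -0.79) and Sox9 of cholangiocytes was higher at 2.11, while 0 of 5 markers of Kupffer cells and leukocytes, 0 of 5 of stellate cells, 0 of 2 of red blood cells and 0 of 4 of pancreas were past 2-fold. The summed normalized signal of the endothelial markers was 35391 upon fasting and 27189 upon feeding, that of the Kupffer cell and leukocyte markers was 40603 and 31224 (median difference -0.41), and that of the stellate cell markers was 38564 and 29955 (median difference -0.24). These 3 sums were all lower upon feeding, at log2 ratios of -0.38, -0.38 and -0.36, and the hepatocyte sum was lower too, at -0.19. Single markers of endothelial cells ranged from -1.04 to -0.11. Those of Kupffer cells and leukocytes ranged from -0.89 to 0.20 and those of stellate cells from -0.97 to 0.24, so not all were lower. Of the 5 stellate cell markers 4 were measured on both arrays, and the remaining marker enters their median at 0. The sum of the cholangiocyte markers was 454 and 1706, of which Sox9 alone made up 377 and 1625, and Krt19 and Epcam of cholangiocytes stood at -0.31 and 0.08. The part of other cell types in the differences of Hlf and Nfil3 was not tested.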

How the data were processed

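The authors labelled total RNA with Cy3 by the Quick Amp kit, hybridised each pool to a Whole Mouse Genome oligonucleotide array from Agilent and read the images with Feature Extraction 11.0.1.1. The deposited values are intensities per spot, namely the processed signal, its error, the median signal and the local background, none of them normalized between arrays. Further deposited columns, of other kinds, hold flags and positions. Each array had 44397 spots, 1377 of them controls, and 0 saturated; upon fasting 63.1% of the other spots were well above background, against 72.3% upon feeding. The arrays shared a slide and a scan. The value table of the series equals the local background at 44397 of 44397 spots of each array (relative tolerance 1e-06, medians 30.0 and 22.4) and was not used.

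Here log2 processed signals without control and outlier spots were averaged per probe and quantile normalized, as in the authors' methods. Of 39402 probes, 27218 were named through transcripts in RefSeq (GRCm38.p6). The array design names another build, so no probe coordinates are given, and the promoter coordinates above are those of GRCm38.p6. A gene took its brightest probe, kept if well above background (at least 50% of its spots) on 1 array or more; where this failed on 1 array, a bound replaced the difference. Genes past 2-fold, the authors' threshold, were counted, with no test, since each group had 1 array; the number of arrays limits the precision. Members and lists were chosen with earlier results of these data known. Named genes were all members and repressors, the feeding genes, and up to 3 genes past 2-fold of each other list; Arntl2, Rorb, Cebpa, Cebpg, Krt19, Epcam, Ncor1 and Ep300 fall outside this rule and were named after their values were seen; some genes of the lists are not reported here. The procedure was tested on simulated data with the same small noise on every probe, for genes well above background on both arrays. That test covered neither the wider spread of dim probes nor the bound. Tools were Python 3.11.15, pandas 2.3.3, R 4.3.3 and limma 3.58.1.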

Additional observations from a re-analysis of the deposited data

How the results depend on the processing

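The count of 2 members past 2-fold was 1 with scaling by the median, where Nfil3 dropped out, and 0 at a threshold of 3-fold; it stayed at 2 with scaling by the 75th percentile, the normexp background correction (offset 50), the mean of a gene's probes, outlier spots kept, both filters and 1.5-fold. The median difference of the members, -0.14, was 0.02 with scaling by the median and between -0.07 and -0.16 otherwise. The 1293 genes past 2-fold became 527 with normexp, 2366 with no filter and no bound, 3451 at 1.5-fold and 469 at 3-fold. With scaling by the median 717 genes were higher and 649 lower, against 537 and 756. Over 30 named genes, 43 of 180 values under alternatives moved by at least the spread between spots. A reversal was counted only for the 18 of these genes past 2-fold, and there were 0. Clock and Tef, not past 2-fold, changed sign with scaling by the median, at 0.07 and 0.03. For a gene with 1 probe measured on both arrays, the mean of its probes and the lack of a bound leave the value unchanged. Normexp was run on the median signal, and the value table of the series was not tried as signal, because it holds local background. No paired analysis was possible because each group has 1 array. The depth of an array is its signal over background, which leaves Npas2, Per3 and Bhlhe41 without a fold.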

Other observations

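The following genes were chosen after their values were seen. Sox9, a transcription factor of cholangiocytes, was spotted 10 times on each array, and its processed signal lay between 364 and 449 upon fasting and between 1517 and 1674 upon feeding, so its spots did not overlap between the arrays; its log2 difference was 2.11, larger than that of Hlf, on 1 pool per group. Ncor1, the corepressor through which the REV-ERB proteins act, has 3 probes on different transcripts, of which 2 stood at -0.14 and -0.16 while the third, on another transcript, stood at 1.19, with normalized signals of 224 upon fasting and 513 upon feeding. Among the kinases, ligases and cofactors listed, Ep300, an acetyltransferase, was lowest at -0.89.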
